A study of Mus musculus with 24 samples.

Results

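Ankrd1, Axl, F3, Crim1, Nt5e, Fjx1, Nuak2, Ptpn14, Dock5 and Arhgef17 are target genes of the transcriptional coactivators YAP and TAZ that lie outside the CCN family of matricellular genes. They were chosen by name from known targets, with earlier results of these data known, and all 10 were found by Ensembl identifier among the genes counted. A filter on low counts, a mean of at least 5 over all libraries, was passed by 9 of the 10, and Nt5e was not tested.

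RNA-Seq of polyadenylated RNA gave 24 libraries of NIH 3T3 cells, a mouse fibroblast line, in 8 groups of 3 replicates. Every line was made with pBabeNeo retrovirus, selected with G418 and kept as a pool of stable cells, not as a single clone, and the expressed proteins carried a Flag tag. EV cells held the empty vector. TAZ4SA and YAP5SA cells expressed TAZ or YAP in which serines that the LATS kinases phosphorylate were replaced by alanine. TAZ-CAMTA1 and YAP-TFE3 cells expressed the fusion proteins of these coactivators with CAMTA1 and TFE3, and TFE3 cells expressed TFE3 itself. EV, TAZ4SA, YAP5SA, YAP-TFE3 and TFE3 cells had been confluent for 48 h when collected. TAZ-CAMTA1 was taken as confluent too, from the sample descriptions, but the study's methods can be read to place it below confluence. CAMTA1 cells expressed CAMTA1 itself and were collected below confluence, so they were compared with EVsub cells, which held the empty vector and were labelled sub-confluent. The comparisons of TAZ-CAMTA1 with EV, TAZ4SA and YAP-TFE3, and the difference of effects that uses them, may hold a difference in density, which cannot be told apart here. EVsub was tried as its control after the data were seen. TAZ4SA, TAZ-CAMTA1, YAP5SA, YAP-TFE3, TFE3 and EVsub were each set against the same 3 EV libraries, so these comparisons share their controls.

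Among the mouse genes of the expressed proteins, Tfe3 had a mean of 72.2 CPM in TFE3 (SD 3.59) and 79.8 in YAP-TFE3 (SD 3.97), beside 89.0 in EV (SD 4.33). Yap1 had 101 CPM in YAP5SA (SD 9.50) and 161 in YAP-TFE3 (SD 8.2), beside 184 in EV (SD 12.5). Camta1 had 4.64 CPM in TAZ-CAMTA1 (SD 0.339) beside 4.85 in EV (SD 0.0231), and 9.97 in CAMTA1 (SD 1.1) beside 4.76 in EVsub (SD 0.825). Wwtr1, the gene of TAZ, had 162 CPM in TAZ4SA (SD 9.41) and 151 in TAZ-CAMTA1 (SD 9.96), beside 134 in EV (SD 3.79). In groups without the construct, Wwtr1 had 148.7 CPM in YAP5SA (SD 14.38). Tfe3 had 133.5 CPM in TAZ4SA (SD 37.71) and 162.9 in YAP5SA (SD 4.579), and Yap1 114.3 in TAZ4SA (SD 3.625). Whether reads from the constructs were counted on these genes was not tested.

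YAP and TAZ are the coactivators at the end of the Hippo pathway, in which the kinases LATS1 and LATS2 phosphorylate them and keep them in the cytoplasm. When not phosphorylated, they enter the nucleus, where they bind DNA through the TEAD transcription factors and switch on genes of growth, adhesion and the cytoskeleton. High cell density activates the pathway in fibroblasts and epithelial cells, and the fusions TAZ-CAMTA1 and YAP-TFE3 occur in the vascular cancer epithelioid hemangioendothelioma.

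Library totals lay between 16471181 counts, in TAZ4SA replicate 2, and 30132586 counts, in CAMTA1 replicate 3. Group medians were 21750297 in EV, 22363950 in EVsub, 21688196 in TAZ4SA, 23574050 in TAZ-CAMTA1, 25706916 in CAMTA1, 23599726 in YAP5SA, 22556635 in YAP-TFE3 and 22234000 in TFE3. Levels are given as CPM, counts scaled to a common library size, after TMM scaling, which corrects library totals for differences in composition. A count of 3 stood for 0.0928 to 0.225 CPM depending on the library, a limit that covers counting error only.

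The fibroblast markers matched the labelled cell line. All 10 were counted in each of the 24 libraries and were tested. They summed to 35890, 38650 and 39480 CPM in EV, 24550, 37480 and 32250 in EVsub, 21940, 26410 and 20890 in TAZ4SA, and 43000, 38650 and 44440 in TAZ-CAMTA1. The sums were 20530, 26290 and 28740 CPM in CAMTA1, 28620, 33510 and 30300 in YAP5SA, 54380, 43650 and 41320 in YAP-TFE3, and 34160, 33320 and 30190 in TFE3. Fn1, the gene of fibronectin, reached the highest level among them, up to 19060 CPM. Against EV, 2 fibroblast markers rose and 4 fell in TAZ4SA and also in YAP5SA, 3 rose and 1 fell in TAZ-CAMTA1, and 4 rose and 1 fell in YAP-TFE3. Of all genes 57.5%, 71.2%, 21.5% and 15.3% were called in these groups. Thy1 rose in all of these groups, by log2 fold changes of 1.66, 0.76, 2.36 and 1.49 in TAZ4SA, TAZ-CAMTA1, YAP5SA and YAP-TFE3. Pdgfrb fell, with log2 fold changes of -1.47, -0.56, -2.00 and -0.37, the last call lost without any 1 of 13 libraries, 2 of them EV and all 3 YAP-TFE3 (highest adjusted p 0.280). Fbn1 rose in TAZ4SA (0.73), a call lost without EV replicate 1 (0.63, adjusted p = 0.0512) or TAZ4SA replicate 3 (0.53, adjusted p = 0.0629), and with library totals (0.0516). It also rose in TAZ-CAMTA1 (0.90) and YAP-TFE3 (0.97), and Col1a2, a collagen chain, rose in YAP-TFE3 (0.82). The last 3 calls were lost without TAZ-CAMTA1 replicate 3 (0.73, adjusted p = 0.0555) or YAP-TFE3 replicate 1 (0.68 and 0.59, adjusted p = 0.0891 and 0.0830). Thy1 also rose (0.96), and Pdgfrb (-0.59), Col3a1 (-1.28) and Fn1 (-0.67) fell, in EVsub against EV, the call of Fn1 lost without EV replicate 3 (adjusted p = 0.0560) or EVsub replicate 1 (0.0818).

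Markers of other cell types stood far lower. Leukocyte markers summed to 4.18, 3.10 and 4.38 CPM in EV, to 67.5, 58.5 and 16.5 CPM in TAZ4SA and to 132, 108 and 83.6 CPM in YAP5SA. The other sums were 5.24, 4.81 and 5.03 CPM in EVsub, 2.23, 2.38 and 3.07 in TAZ-CAMTA1, 4.87, 3.62 and 4.02 in CAMTA1, 4.51, 5.02 and 4.29 in YAP-TFE3, and 6.48, 5.87 and 6.66 in TFE3. The TAZ4SA and YAP5SA libraries were thus all above the other 18. All 3 leukocyte markers tested, of 6, rose in both groups, where 31.1% and 36.3% of all genes rose. Cd68, a lysosomal protein of macrophages, was the most abundant, up to 77.8 CPM, and its log2 fold changes were 3.67 and 4.39 in TAZ4SA and YAP5SA. Those of Csf1r were 3.08 and 5.96 and those of Itgam 6.05 and 5.82. The defining markers stayed at or near 0: Cd3e had at most 1 count in a library and Ptprc, the pan-leukocyte marker CD45, at most 4. Csf1r also rose in EVsub against EV (1.52), a call lost without EV replicate 1 or 2 or EVsub replicate 1 or 2 (highest adjusted p 0.106). What part the rise of these markers had in the values of the YAP/TAZ targets was not tested. The share of counts on mitochondrial genes also differed between groups: 2.04% to 2.23% in YAP5SA, 2.95% to 3.19% in TAZ4SA and 2.75% to 3.19% in EVsub, beside 3.80% to 4.10% in EV and 4.69% to 5.87% in TFE3. It was 3.68% to 4.07% in TAZ-CAMTA1, 3.46% to 4.13% in YAP-TFE3 and 3.49% to 4.05% in CAMTA1, and its part in the results was not tested. Fewer cells of a type and less RNA per cell cannot be told apart in bulk samples.

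Endothelial markers summed to 3.42, 3.01 and 5.0 CPM in EV, 1.00, 0.819 and 0.888 in EVsub, 16.5, 13.7 and 9.32 in TAZ4SA, and 4.98, 5.73 and 5.15 in TAZ-CAMTA1. They came to 2.02, 1.19 and 1.18 CPM in CAMTA1, 9.70, 8.64 and 9.44 in YAP5SA, 13.5, 12.6 and 8.41 in YAP-TFE3, and 6.12, 6.96 and 6.03 in TFE3. Of 7 endothelial markers 4 were tested; against EV, 3 rose and 1 fell in TAZ4SA, 1 rose in TAZ-CAMTA1, 2 rose and 1 fell in YAP5SA, and 3 rose in YAP-TFE3, beside 57.5%, 21.5%, 71.2% and 15.3% of all genes called. Kdr, a VEGF receptor and the most abundant of them, reached 11.2 CPM, and its log2 fold changes were 6.91 in TAZ4SA, 6.33 in YAP5SA and 3.44 in YAP-TFE3. Cdh5 rose in these 3 groups and by 6.37 in TAZ-CAMTA1, Vwf rose by 3.79 in YAP-TFE3, and Tek fell in TAZ4SA (-3.91) and YAP5SA (-2.32). Vwf rose by 1.99 in TAZ4SA, a call lost without TAZ4SA replicate 1 (1.11, adjusted p = 0.0991). In TFE3 against EV, Kdr (3.37, adjusted p = 0.00179) and Vwf (2.80, adjusted p = 0.00289) rose as well, and Tek fell in EVsub against EV (-3.34, adjusted p = 2.92e-05). Pecam1 had at most 13 counts in a library and Tie1 at most 2. Epithelial markers summed to at most 1.76 CPM outside YAP5SA, whose libraries had 8.93, 7.85 and 9.25 CPM, nearly all from Krt14, while Epcam had no count in any library. Of the 6, only Cdh1 and Krt14 were tested; both rose in TAZ-CAMTA1 (1.64 and 3.09), and Cdh1 rose in YAP-TFE3 (1.62). These calls were lost without EV replicate 3, that of Krt14 also without TAZ-CAMTA1 replicate 3, and that of Cdh1 in YAP-TFE3 without YAP-TFE3 replicate 1 or 2 (highest adjusted p 0.0662, 0.140 and 0.0879). Krt14 rose and Cdh1 fell in TAZ4SA (5.04 and -2.38, the latter lost without TAZ4SA replicate 1, adjusted p = 0.0729) and in YAP5SA (7.91 and -2.37). Krt14 also rose in EVsub against EV (2.82), a call lost without EV replicate 2 or 3 or EVsub replicate 2 (highest adjusted p 0.140). The part of these markers in the results was not tested.

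**Figure D1:**
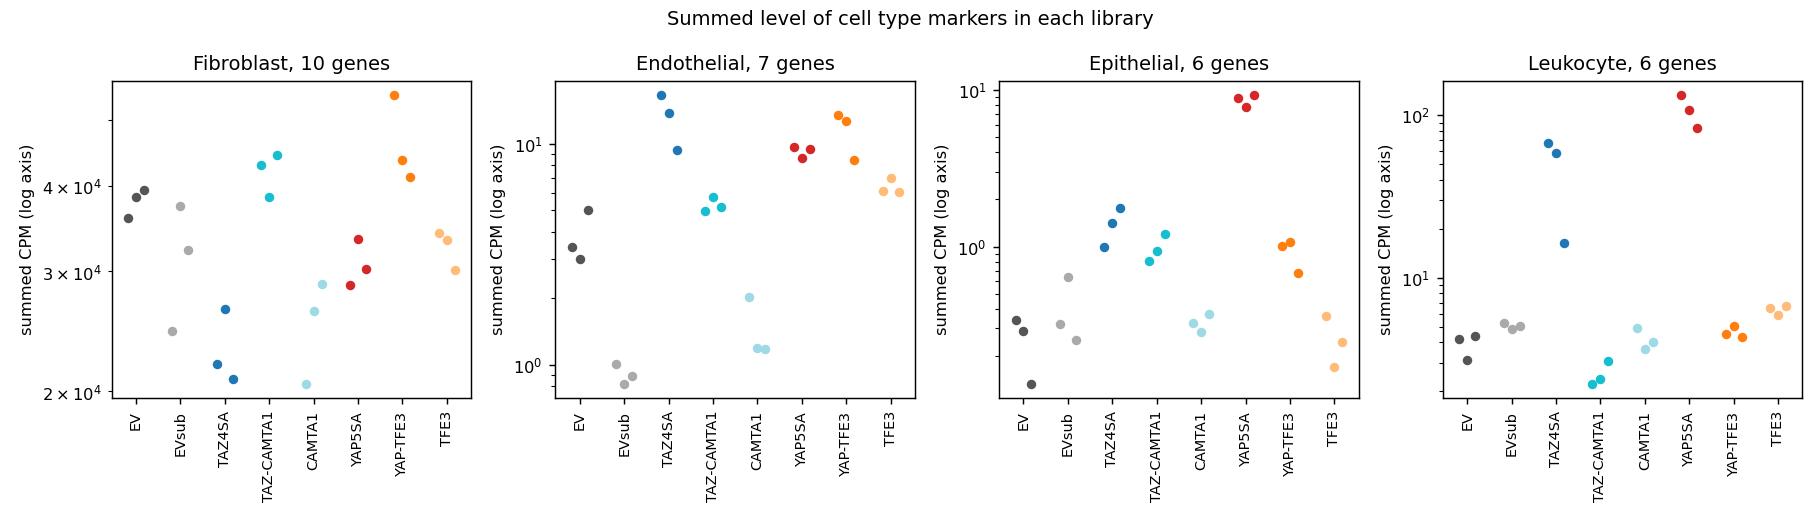
Summed CPM of the fibroblast, endothelial, epithelial and leukocyte markers in each library, on log axes, by group; each point is 1 library. Leukocyte sums of the TAZ4SA and YAP5SA libraries, 16.5 to 132 CPM, lay above all others, while the fibroblast sums stayed between 20530 and 54380 CPM.

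Per kilobase of exon, the most abundant of the 10 targets in EV cells were Axl, with 166 CPM per kb (SD 3.35, n = 3), and F3, with 149 CPM per kb (SD 9.33). Arhgef17 had 15.2, Crim1 10.3, Ptpn14 8.14, Dock5 7.96, Ankrd1 7.60, Fjx1 3.18 and Nuak2 2.61 CPM per kb, and Nt5e 0.00327.

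Calls came from edgeR's quasi-likelihood test with p adjusted by Benjamini and Hochberg over all 14361 genes tested, and a gene rose or fell when the adjusted p was under 0.05. In TAZ4SA against EV, 4 of the 9 targets tested rose and 3 fell, where 31.1% of all genes rose and 26.4% fell. In YAP5SA against EV, 5 rose and 3 fell, where 36.3% of all genes rose and 34.9% fell. With most genes called, the counts in these activated forms say little by themselves: 77.8% and 88.9% of the targets were called, against 57.5% and 71.2% of all genes. Backgrounds were lower for the fusions. In TAZ-CAMTA1 against EV, 6 rose, where 12.5% of all genes rose, and none fell, where 8.98% did. At an unadjusted p under 0.05 it was 7 of 9, beside 4873 of all 14361 genes, and DESeq2 called 7 of 9. The addition in both was a lower Fjx1. In YAP-TFE3 against EV, 3 rose and 2 fell, where 10.6% and 4.74% of all genes did. The called shares were 66.7% of the targets against 21.5% of all genes for TAZ-CAMTA1, and 55.6% against 15.3% for YAP-TFE3. The targets were chosen with earlier results of these data known, so these shares are a description and no test of enrichment.

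The count in TAZ-CAMTA1 was 3 without EV replicate 1. That in YAP-TFE3 was 3 without EV replicate 1, 1 without EV replicate 3 and 2 without YAP-TFE3 replicate 1. TFE3 itself called none of the 9 targets by edgeR, where 2.36% of all genes rose and 1.02% fell. Only Axl among them had an unadjusted p under 0.05, beside 2055 of all genes, and DESeq2 called Axl lower. For CAMTA1 against EVsub, 1 target rose, where 1.29% of all genes rose, and none fell, where 0.891% did. Here 2 targets, Ankrd1 and Crim1, had an unadjusted p under 0.05, beside 2612 of all genes, and DESeq2 called both targets. Without EVsub replicate 1 or without TAZ4SA replicate 3 the count was 2, and without EVsub replicate 2 or CAMTA1 replicate 2 it was 0. In EVsub against EV, which sets sub-confluent against confluent empty vector cells, 3 targets rose and 2 fell, where 12.5% and 9.59% of all genes did. That count of 5 was 3 without EV replicate 1 or EVsub replicate 2, and 2 without EVsub replicate 1.

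With EVsub in place of EV as the control of TAZ-CAMTA1, 3 targets rose, Nuak2 (0.60, SE 0.168, adjusted p = 0.0137), Ptpn14 (0.70, SE 0.104, 4.09e-05) and F3 (1.05, SE 0.191, 0.000391), by edgeR. Of all genes 11.6% rose and 9.81% fell. Ankrd1 gave 0.80 (SE 0.306, adjusted p = 0.0656), Axl 0.03 (0.885), Arhgef17 0.12 (0.450), Crim1 -0.13 (0.702), Dock5 0.11 (0.589) and Fjx1 -0.19 (0.623). Of the 6 calls against EV, those of Nuak2 and Ptpn14 held with either control. DESeq2 was not run for this control.

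Medians of the log2 fold change over the 9 targets were 0.15 in TAZ4SA, 0.37 in TAZ-CAMTA1, 0.97 in YAP5SA and 0.19 in YAP-TFE3, each against EV, beside all-gene medians of 0.05, 0.00, 0.01 and 0.00. The targets' medians were -0.16 in TFE3, 0.19 in CAMTA1 against EVsub and 0.19 in EVsub against EV, beside -0.02, -0.03 and 0.02. Over the alternatives these ran from -0.18 to -0.1, 0.12 to 0.22 and 0.12 to 0.25, and the median in YAP-TFE3 against EV from 0.12 to 0.2. With EVsub as its control, the targets' median in TAZ-CAMTA1 was 0.12. Scaling by library totals in place of TMM moved the targets' medians in TAZ4SA and YAP5SA to -0.02 and 0.59 and the all-gene medians to -0.12 and -0.36. The share of called genes that rose then went from 54.1% to 41.9% in TAZ4SA and from 51.0% to 34.5% in YAP5SA. All 15 target calls in these groups had the same direction under that scaling, which added Arhgef17 as lower in both. Ankrd1, Crim1 and Ptpn14 rose in all 4 of TAZ4SA, TAZ-CAMTA1, YAP5SA and YAP-TFE3. With EVsub as its control, Ankrd1 and Crim1 were not called in TAZ-CAMTA1. Against EV, F3, Fjx1 and Dock5 fell in at least 2 of the 4 and rose in none. F3 was called higher in TAZ-CAMTA1 with EVsub as its control (1.05, adjusted p = 0.000391), where Dock5 gave 0.11 (0.589).

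**Figure D2:**
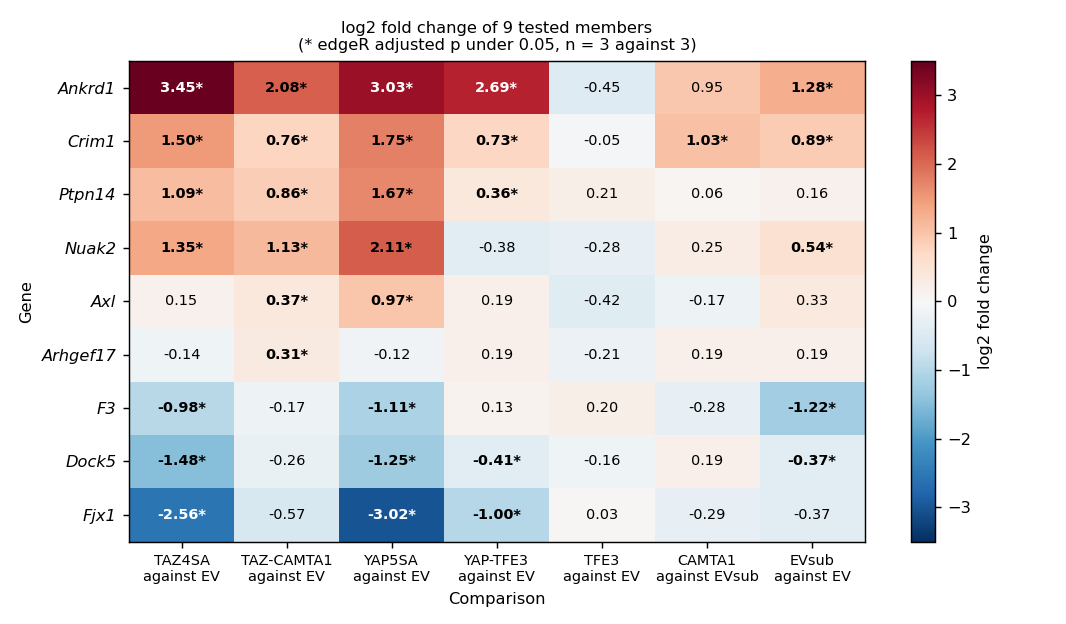
Log2 fold changes of the 9 targets tested (lines) in 7 comparisons with the empty vector (columns), by color, with the value in each cell and an asterisk where the adjusted p of edgeR was under 0.05. Ankrd1, Crim1 and Ptpn14 are positive and called in all 4 coactivator and fusion groups, and Fjx1, Dock5 and F3 are negative in TAZ4SA and YAP5SA.

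Ankrd1 encodes an ankyrin repeat protein of the nucleus and the sarcomere that acts as a transcriptional cofactor, and it is a common readout of YAP and TAZ. It is gene ENSMUSG00000024803, at chr19:36111961-36120099 on the minus strand (mm10). Its RefSeq promoter window, from 250 bases before to 50 after the start (GRCm38.p6, chr19:36119795-36120094, minus strand), is shown because it holds the motif searched for. Capitals mark GGAATG, the core of the motif that TEAD factors bind, or its reverse complement CATTCC.
Ankrd1: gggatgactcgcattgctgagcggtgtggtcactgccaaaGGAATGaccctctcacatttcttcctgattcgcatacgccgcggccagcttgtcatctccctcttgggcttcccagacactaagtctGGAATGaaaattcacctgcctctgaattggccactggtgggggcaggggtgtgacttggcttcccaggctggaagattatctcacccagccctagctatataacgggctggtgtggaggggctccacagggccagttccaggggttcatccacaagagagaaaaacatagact
The window held 2 matches, 210 and 123 bases before the RefSeq start. That start lies 255 bases inside the gene as annotated in GENCODE, so both matches fall within the coordinates given above. The RefSeq start of Axl lies 28 bases before the annotated start, that of Nt5e 412 bases inside the gene, and those of F3, Crim1 and Ptpn14 are the same as annotated. Of the 32851 RefSeq windows of 300 bases, 14.7% held at least 1 match on either strand and 1.36% held 2 or more, and a match is a description of letters only. Windows were found for 6 of the 10 targets, of which 4 held the motif: Ankrd1, Axl, Crim1 and Ptpn14. Those of F3 and Nt5e held none, and Fjx1, Nuak2, Dock5 and Arhgef17 had no entry.

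The Ankrd1 level was 15.7, 31.5 and 18.6 CPM in the EV libraries and 16.5, 15.7 and 15.9 CPM in TFE3. It was 171, 171 and 374 CPM in TAZ4SA and 204, 162 and 171 CPM in YAP5SA. Fusion libraries had 71.8, 102 and 104 CPM for TAZ-CAMTA1 and 204, 113 and 108 CPM for YAP-TFE3. All 12 libraries of these 4 groups were above all 3 EV libraries, whereas TFE3 overlapped EV. Sub-confluent EVsub cells had 75.8, 39.3 and 44.5 CPM, also above EV throughout, and CAMTA1 cells 120, 103 and 85.3 CPM, above EVsub throughout. By mean, the order was TAZ4SA (239 CPM, SD 117), YAP5SA (179, SD 22.1), YAP-TFE3 (142, SD 54.2), CAMTA1 (103, SD 17.2), TAZ-CAMTA1 (92.4, SD 17.9), EVsub (53.2, SD 19.8), EV (21.9, SD 8.44) and TFE3 (16.0, SD 0.431). Of the neighbours in this order, only EVsub and EV had ranges that did not overlap.

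The log2 fold changes of Ankrd1 against EV were 3.45 in TAZ4SA (SE 0.335, adjusted p = 2.34e-08), 3.03 in YAP5SA (SE 0.330, 3.99e-08), 2.69 in YAP-TFE3 (SE 0.325, 4.36e-06) and 2.08 in TAZ-CAMTA1 (SE 0.320, 5.41e-05). The last was 0.80 with EVsub as control (0.0656, in a range from 2.55e-13). It was lower with the fusion than with TAZ4SA (-1.37, SE 0.306, adjusted p = 0.000748), while YAP-TFE3 against YAP5SA gave -0.34 (adjusted p = 0.321), which was 0.01 with scaling by library totals. YAP-TFE3 exceeded TFE3 by 3.14 (SE 0.332, adjusted p = 4.16e-07). EVsub exceeded EV by 1.28 (SE 0.315, adjusted p = 0.00549); without EVsub replicate 1 it was 0.94, with an adjusted p of 0.0527. CAMTA1 against EVsub gave 0.95 (SE 0.306, adjusted p = 0.107) and passed in 4 of 31 alternatives: by DESeq2 (0.0470), with no filter (0.00114), without EVsub replicate 1 (1.29, 0.0269) and without TAZ4SA replicate 3 (0.0396). Over all 31 its adjusted p ran from 0.00114 to 0.424.

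**Figure D3:**
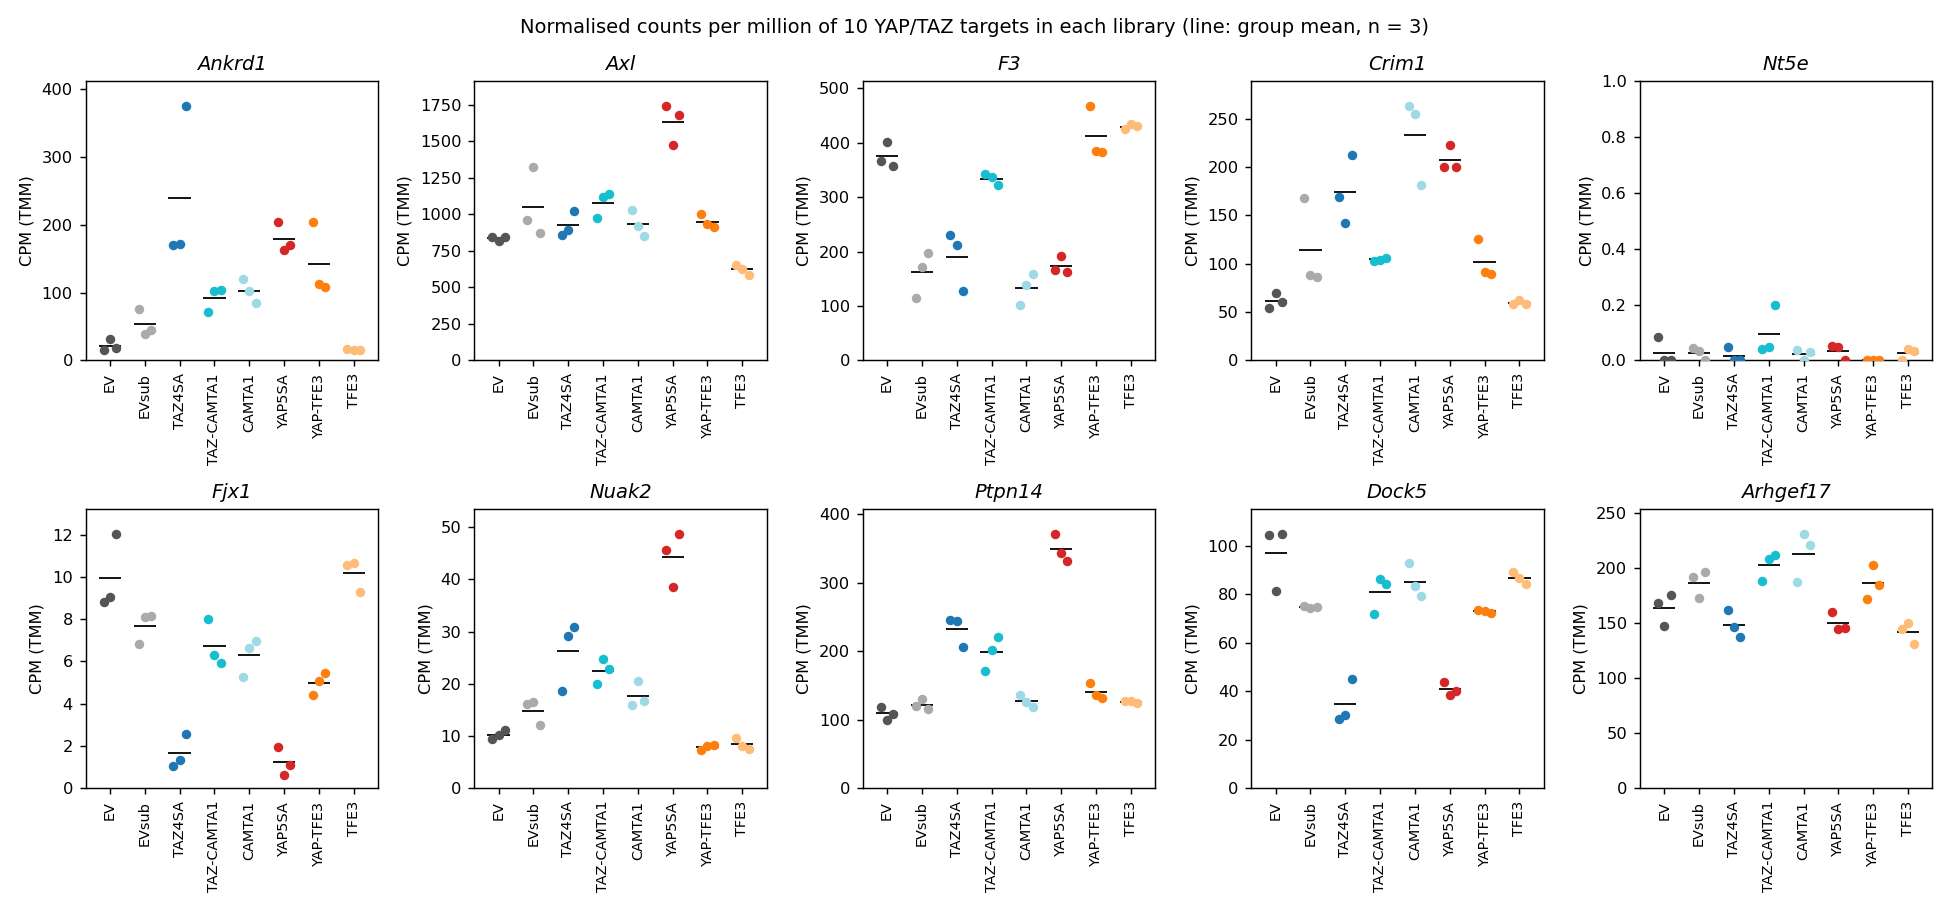
CPM of each of the 10 targets in each of the 24 libraries, 1 panel per gene with its own axis; points are libraries and lines are group means (n = 3). Ankrd1 shows all TAZ4SA, TAZ-CAMTA1, YAP5SA and YAP-TFE3 libraries (71.8 to 374 CPM) above all EV libraries (15.7 to 31.5 CPM), and Fjx1 shows all TAZ4SA and YAP5SA libraries at or under 2.55 CPM.

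Other sarcomere genes related to Ankrd1 were scarce. Of 5 listed, 2 were tested: both rose in TAZ4SA and YAP5SA, where 31.1% and 36.3% of all genes rose, and 1 rose in each fusion group, where 12.5% and 10.6% did. Ttn, whose giant protein titin binds the Ankrd1 product, rose by 2.97 in TAZ4SA, 1.90 in TAZ-CAMTA1, 3.61 in YAP5SA and 1.80 in YAP-TFE3. Its fusion calls were lost without TAZ-CAMTA1 replicate 3 (1.36, adjusted p = 0.0504) or YAP-TFE3 replicate 1 (1.54, adjusted p = 0.0554). Ankrd23 rose by 0.76 in TAZ4SA and 0.49 in YAP5SA, with values of 0.07 and 0.41 in the fusion groups, and the YAP5SA call was lost without EV replicate 2, YAP5SA replicate 2 or 3 and in 4 other alternatives (highest adjusted p 0.604).

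Among the targets at the cell surface, Axl encodes a receptor tyrosine kinase for the vitamin K-dependent ligand Gas6 that promotes survival and migration. The gene, ENSMUSG00000002602, lies at chr7:25757273-25788705 on the minus strand. Its window (chr7:25788684-25788983, minus strand) held 1 match, 233 bases before the RefSeq start, and is printed for that match.
Axl: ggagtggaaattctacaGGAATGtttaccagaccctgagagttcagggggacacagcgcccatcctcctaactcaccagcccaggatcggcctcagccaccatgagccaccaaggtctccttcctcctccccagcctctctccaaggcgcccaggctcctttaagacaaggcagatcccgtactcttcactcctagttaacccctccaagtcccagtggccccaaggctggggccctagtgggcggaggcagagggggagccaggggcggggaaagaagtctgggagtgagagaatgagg
EV libraries had 843, 816 and 847 CPM of Axl, and TFE3 libraries 654, 629 and 584 CPM. YAP5SA libraries had 1738, 1474 and 1679 CPM, above every other library. Values were 862, 890 and 1026 CPM in TAZ4SA, 978, 1118 and 1137 CPM in TAZ-CAMTA1, and 999, 934 and 916 CPM in YAP-TFE3. These 3 groups were above EV in every library, but by little. EVsub (958, 1322 and 875 CPM) and CAMTA1 (1028, 917 and 849 CPM) overlapped each other. By mean, YAP5SA (1630 CPM, SD 139) stood apart at the top, and EV (835, SD 16.9) and TFE3 (623, SD 35.4) stood apart at the bottom. TAZ-CAMTA1 (1078), EVsub (1052), YAP-TFE3 (950), CAMTA1 (932) and TAZ4SA (926) lay between them in that order, each overlapping the next.

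Axl rose by 0.97 in YAP5SA against EV (SE 0.132, adjusted p = 1.09e-06), and YAP5SA exceeded TAZ4SA (TAZ4SA against YAP5SA, -0.82, adjusted p = 5.73e-05) and YAP-TFE3 (YAP-TFE3 against YAP5SA, -0.78, SE 0.132, adjusted p = 1.77e-05). TAZ4SA against EV gave 0.15 (adjusted p = 0.346), or -0.02 with library totals, and YAP-TFE3 against EV gave 0.19 (adjusted p = 0.400). The call in TAZ-CAMTA1 (0.37, SE 0.131, adjusted p = 0.0485) lay at the threshold and was lost in 22 of 32 alternatives, over which the adjusted p ran from 0.0144 to 0.885, the highest with EVsub as control (0.03). The libraries whose removal ended it were all 3 of EV (0.112, 0.103 and 0.108), TAZ4SA replicate 1 (0.0504), TAZ-CAMTA1 replicates 2 and 3 (0.142 and 0.157) and CAMTA1 replicates 2 and 3 (0.0600 and 0.0525). So did the removal of YAP5SA replicates 1 and 3 (0.0525 and 0.0575), any YAP-TFE3 library (0.0686, 0.0577 and 0.0564) or any TFE3 library (0.0583, 0.0602 and 0.0573). YAP-TFE3 exceeded TFE3 by 0.61 (adjusted p = 0.00143). TFE3 against EV gave -0.42 (SE 0.131, adjusted p = 0.0846) with every library below EV; the adjusted p was 0.0272 by DESeq2, 0.00671 in a fit of only the groups compared and 0.0267 without EVsub replicate 2, within a range of 0.00671 to 0.322. EVsub against EV gave 0.33 (adjusted p = 0.0732), and 0.45 without EVsub replicate 3 (0.0174, in a range to 0.510).

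Of 4 relatives and ligands of Axl, all tested, 3 fell in TAZ4SA and all 4 fell in YAP5SA, where 26.4% and 34.9% of all genes fell, and 1 rose and 1 fell in each fusion group, where 21.5% and 15.3% of all genes were called. Mertk, a sister receptor, fell, with log2 fold changes of -4.27 in TAZ4SA, -4.00 in YAP5SA, -0.76 in TAZ-CAMTA1 and -0.76 in YAP-TFE3. It fell in EVsub against EV as well (-1.84, adjusted p = 4.18e-06), and with EVsub as control TAZ-CAMTA1 gave 1.08, the other direction (adjusted p = 0.000473, in a range to 0.0443). Gas6, the ligand, fell in YAP5SA (-2.80) and rose in TAZ-CAMTA1 (0.92, lost without TAZ-CAMTA1 replicate 1 at 0.58, adjusted p = 0.0999), with -0.34 in TAZ4SA and 0.12 in YAP-TFE3. Its call in EVsub against EV (-0.80) was lost without any 1 EV library or EVsub replicate 1 (highest adjusted p 0.146). Pros1, protein S, fell in TAZ4SA (-0.57) and YAP5SA (-0.64) and rose in YAP-TFE3 (0.71). The third receptor, Tyro3, fell in TAZ4SA (-0.39) and YAP5SA (-0.61), the former call lost without EV replicate 1 or 3 or TAZ4SA replicate 1 or 2 (highest adjusted p 0.122).

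F3 encodes tissue factor, the membrane receptor of clotting factor VII that starts coagulation (ENSMUSG00000028128, chr3:121723537-121735048, plus strand). EV libraries had 366, 402 and 358 CPM, TFE3 libraries 425, 434 and 431 CPM, and YAP-TFE3 libraries 467, 385 and 383 CPM. TAZ4SA libraries had 231, 213 and 127 CPM and YAP5SA libraries 166, 191 and 163 CPM. F3 was lower in all 6 of these than in any EV library. TAZ-CAMTA1 libraries, at 342, 337 and 322 CPM, were slightly below EV. EVsub had 115, 172 and 198 CPM and CAMTA1 103, 138 and 159 CPM, so that sub-confluent cells had the lowest means. By mean the order was TFE3 (430 CPM, SD 4.21), YAP-TFE3 (412, SD 47.8), EV (375, SD 23.6), TAZ-CAMTA1 (334, SD 10.3), TAZ4SA (190, SD 55.4), YAP5SA (173, SD 15.5), EVsub (162, SD 42.6) and CAMTA1 (133, SD 28.6). TAZ-CAMTA1 overlapped neither neighbour, and every other pair of neighbours overlapped.

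F3 fell against EV, with log2 fold changes of -0.98 in TAZ4SA (SE 0.191, adjusted p = 0.000160), -1.11 in YAP5SA (SE 0.192, adjusted p = 2.2e-05) and -1.22 in EVsub (SE 0.192, adjusted p = 0.000128). TAZ-CAMTA1 and YAP-TFE3 gave -0.17 (adjusted p = 0.572) and 0.13 (0.716). With EVsub as control, TAZ-CAMTA1 gave 1.05, a reversed direction (0.000391, in a range to 0.746). Both fusions differed from their activated coactivator when tested directly: F3 was higher in TAZ-CAMTA1 than in TAZ4SA by 0.81 (SE 0.191, adjusted p = 0.00116) and higher in YAP-TFE3 than in YAP5SA by 1.25 (SE 0.192, adjusted p = 5.64e-06). CAMTA1 against EVsub gave -0.28 (adjusted p = 0.443).

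Of 7 genes that act with tissue factor in clotting, 3 were tested. All 3 rose in YAP-TFE3: Thbd, the thrombin receptor thrombomodulin, by 1.67, Tfpi, the inhibitor of tissue factor, by 1.38, and F2r, a thrombin-activated receptor, by 0.61. Of all genes 10.6% rose there. In YAP5SA, where 34.9% of all genes fell, 2 of them fell, Tfpi (-1.15) and F2r (-0.55), and Thbd had 0.32. Thbd alone rose in TAZ4SA (0.79) and in TAZ-CAMTA1 (1.03), where 31.1% and 12.5% of all genes rose. Tfpi fell in EVsub against EV (-1.54, adjusted p = 0.00182). F2r also rose in CAMTA1 against EVsub (0.49, adjusted p = 0.0228), where 1.29% of all genes rose. Genes called in that comparison ran from 72 to 710 with 1 library left out.

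Crim1 encodes a transmembrane protein with cysteine-rich repeats that binds bone morphogenetic proteins (ENSMUSG00000024074, chr17:78200248-78376592, plus strand). Its window (chr17:78199998-78200297, plus strand) held 1 match, 79 bases before the start, and is shown for that match.
Crim1: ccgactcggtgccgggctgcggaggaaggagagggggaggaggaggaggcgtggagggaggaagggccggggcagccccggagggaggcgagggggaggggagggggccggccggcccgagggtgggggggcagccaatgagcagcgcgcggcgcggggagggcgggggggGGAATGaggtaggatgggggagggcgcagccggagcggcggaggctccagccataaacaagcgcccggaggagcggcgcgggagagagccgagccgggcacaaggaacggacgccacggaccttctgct
Crim1 stood at 54.4, 70.0 and 60.8 CPM in EV and at 58.2, 62.3 and 58.2 CPM in TFE3. It was 168, 142 and 213 CPM in TAZ4SA and 200, 222 and 200 CPM in YAP5SA. TAZ-CAMTA1 had 103, 104 and 106 CPM and YAP-TFE3 126, 91.3 and 89.6 CPM. Every library of these 4 groups was above every EV library, and TFE3 overlapped EV. Sub-confluent EVsub cells also had higher values than EV, 168, 88.0 and 86.3 CPM. CAMTA1 cells, which were sub-confluent and expressed CAMTA1, had 263, 255 and 182 CPM. From the top, the means ran CAMTA1 (233 CPM, SD 44.6), YAP5SA (207, SD 12.9), TAZ4SA (174, SD 35.7), EVsub (114, SD 46.5), TAZ-CAMTA1 (104, SD 1.61), YAP-TFE3 (102, SD 20.4), EV (61.7, SD 7.83) and TFE3 (59.6, SD 2.33), and only YAP-TFE3 and EV did not overlap as neighbours.

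Against EV, Crim1 rose by 1.75 in YAP5SA (SE 0.208, adjusted p = 1.54e-07) and 1.5 in TAZ4SA (SE 0.207, adjusted p = 2.78e-06). It rose less in the fusion groups: 0.76 in TAZ-CAMTA1 (SE 0.204, adjusted p = 0.00979) and 0.73 in YAP-TFE3 (SE 0.204, adjusted p = 0.0166), with direct differences of -0.74 from TAZ4SA (SE 0.203, adjusted p = 0.00402) and -1.02 from YAP5SA (SE 0.204, adjusted p = 0.000127). The call in TAZ-CAMTA1 was lost without EV replicate 1 (0.68, 0.0577) and, with EVsub as control, reversed to -0.13 (0.702), in a range from 0.000166. In YAP-TFE3 it was lost without EV replicate 1 (0.64, 0.0854), EV replicate 3 (0.72, 0.0606) or YAP-TFE3 replicate 1 (0.52, 0.177), over a range of adjusted p from 0.000399 to 0.177. EVsub exceeded EV by 0.89 (SE 0.205, adjusted p = 0.00351), a call lost with only these groups in the fit (0.0558, in a range from 1.2e-05); without EVsub replicate 1 the value was 0.50. Crim1 was the 1 target that rose in CAMTA1 against EVsub (1.03, SE 0.204, adjusted p = 0.00872), a call lost without EVsub replicate 2 (0.88, 0.0896), without CAMTA1 replicate 2 (0.96, 0.0513) and with only those groups in the fit (0.181), in a range from 2.87e-06. YAP-TFE3 exceeded TFE3 by 0.78 (SE 0.204, adjusted p = 0.00721), or by 0.57 without YAP-TFE3 replicate 1 (0.0877).

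An exon of Crim1 overlaps Fez2 on the other strand. The libraries were stranded, but whether strand was used in making the deposited counts is not stated. Fez2 means were 53.5 CPM in EV, 122 in TAZ4SA, 75.7 in TAZ-CAMTA1, 161 in YAP5SA, 89.6 in YAP-TFE3, 56.2 in TFE3, 79.0 in EVsub and 105 in CAMTA1. How the reads of the shared stretch were assigned was not tested. Of 5 listed BMP ligands and receptors, 2 were tested: Bmpr1a, a type I receptor, fell in TAZ4SA (-0.93) and YAP5SA (-1.81), and Bmpr2 had values from 0.10 to 0.31 in the 4 groups with none called by edgeR. Bmpr2 fell in EVsub against EV (-0.39), a call lost without EV replicate 2 or 3 or EVsub replicate 1 or 2 (highest adjusted p 0.177).

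Nt5e encodes CD73, the surface enzyme that makes adenosine from AMP (ENSMUSG00000032420, chr9:88327197-88372092, plus strand). It was at the detection limit: the EV libraries had 2, 0 and 0 counts, EVsub 1, 1 and 0, TAZ4SA 1, 0 and 0, and TAZ-CAMTA1 1, 1 and 5. Counts were 1, 0 and 1 in CAMTA1, 1, 1 and 0 in YAP5SA, 0, 0 and 0 in YAP-TFE3, and 0, 1 and 1 in TFE3. TAZ-CAMTA1 replicate 3 was the only library with more than 3 counts, at 0.200 CPM. With no filter edgeR called Nt5e in none of the 13 comparisons; the lowest adjusted p was 0.111, for TAZ-CAMTA1 against YAP-TFE3, with an unadjusted p of 0.0121, the only one under 0.05. A difference in Nt5e was not detectable at this depth.

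Of 8 other genes of the adenosine pathway, 4 were tested. In TAZ4SA and in TAZ-CAMTA1 2 rose, and in YAP5SA and YAP-TFE3 1 rose and 1 fell. Of all genes 57.5%, 21.5%, 71.2% and 15.3% were called in these groups. Adora2b, an adenosine receptor, rose in all 4 groups, by 1.20 in TAZ4SA, 0.80 in TAZ-CAMTA1, 1.92 in YAP5SA and 1.03 in YAP-TFE3. The transporter gene Slc29a1 fell in YAP5SA (-1.37) and YAP-TFE3 (-0.74), Ada, adenosine deaminase, rose in TAZ4SA (0.92), and Entpd2, which hydrolyses extracellular ATP, rose in TAZ-CAMTA1 (2.30) from a mean of 0.216 CPM in EV. Ada also rose (0.88, adjusted p = 0.00234) in EVsub against EV. Entpd2 fell there (adjusted p = 0.00692), a call lost when the fit held EV and EVsub alone (0.0664). EVsub had no count of Entpd2, so the fitted log2 fold change of -5.31 is no exact size. The Slc29a1 call in YAP-TFE3 was lost without EV replicate 1 or 3 or YAP-TFE3 replicate 1 or 2 (highest adjusted p 0.140).

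Fjx1 encodes a Golgi kinase whose fly homolog, four-jointed, phosphorylates the cadherins Fat and Dachsous (ENSMUSG00000075012, chr2:102449366-102452499, minus strand). EV libraries had 8.82, 9.07 and 12 CPM and TFE3 libraries 10.6, 10.7 and 9.28 CPM. With the activated coactivators it was 1.04, 1.35 and 2.55 CPM in TAZ4SA and 1.95, 0.638 and 1.08 CPM in YAP5SA, the lowest 6 of the 24 libraries. Values were 8.01, 6.29 and 5.91 CPM in TAZ-CAMTA1 and 4.41, 5.09 and 5.48 CPM in YAP-TFE3, below EV in each library and above TAZ4SA and YAP5SA in each. EVsub had 6.83, 8.08 and 8.16 CPM and CAMTA1 5.27, 6.62 and 6.99 CPM. The means ran from TFE3 (10.2 CPM, SD 0.775) and EV (9.98, SD 1.79), which overlapped, through EVsub (7.69), TAZ-CAMTA1 (6.74), CAMTA1 (6.29) and YAP-TFE3 (4.99), where neighbours overlapped, to TAZ4SA (1.65, SD 0.797) and YAP5SA (1.22, SD 0.668), and these 3 sets stood apart.

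Against EV, Fjx1 fell, with log2 fold changes of -3.02 in YAP5SA (SE 0.295, adjusted p = 8.06e-09), -2.56 in TAZ4SA (SE 0.283, adjusted p = 1.39e-07) and -1.0 in YAP-TFE3 (SE 0.250, adjusted p = 0.00767). The last call was lost without EV replicate 3 (-0.84, 0.0573). TAZ-CAMTA1 gave -0.57 (SE 0.246, adjusted p = 0.107), which passed by DESeq2 (0.0449), in a fit of only the groups compared (0.0362) and without TAZ4SA replicate 3 (0.0470), in a range of 0.0362 to 0.623. Both fusions were above their activated coactivator, by 2.00 for TAZ-CAMTA1 against TAZ4SA (SE 0.284, adjusted p = 5.53e-06) and 2.03 for YAP-TFE3 against YAP5SA (SE 0.300, adjusted p = 3.21e-06). YAP-TFE3 was below TFE3 (-1.02, SE 0.249, adjusted p = 0.00414).

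Of the large mouse cadherins of the Fat and Dachsous families, 4 of the 5 counted were tested. In TAZ4SA 2 rose and 1 fell, in YAP5SA 1 rose, and in each fusion group 2 rose. Which of them the Fjx1 product phosphorylates was not tested. Of all genes 57.5% were called in TAZ4SA, 71.2% in YAP5SA, 21.5% in TAZ-CAMTA1 and 15.3% in YAP-TFE3. Fat1 rose by 1.84 in TAZ4SA, 1.09 in TAZ-CAMTA1, 2.18 in YAP5SA and 1.53 in YAP-TFE3. Fat4 fell in TAZ4SA (-0.38) and rose in YAP-TFE3 (0.50), Fat2 rose in TAZ4SA (2.17) and TAZ-CAMTA1 (2.34), and Dchs1 had values from 0.09 to 0.95. In EVsub against EV, Fat1 (1.08, adjusted p = 0.000475) and Fat2 (2.85, adjusted p = 0.0104) rose too, the latter call lost without EV replicate 1 or EVsub replicate 2 (highest adjusted p 0.135). With EVsub as the control of TAZ-CAMTA1, Fat1 gave 0.01 (adjusted p = 0.968, in a range from 6.33e-08) and Fat2 -0.51 (0.560, in a range from 0.0173). The Fat4 and Fat2 calls were weak. Fat4 in TAZ4SA was lost without any 1 of 15 libraries and Fat2 in TAZ-CAMTA1 without any 1 of 13 (highest adjusted p with 1 left out 0.237 and 0.184). Fat4 in YAP-TFE3 was lost without EV replicate 2 or 3 or YAP-TFE3 replicate 1 or 2, and Fat2 in TAZ4SA without EV replicate 1 or 3 or TAZ4SA replicate 1 or 2 (0.222 and 0.137).

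Nuak2 encodes a kinase of the AMPK family that acts on myosin phosphatase (ENSMUSG00000009772, chr1:132316126-132333488, plus strand). It was 9.41, 10.3 and 11.1 CPM in EV, 9.70, 8.15 and 7.46 CPM in TFE3 and 7.37, 8.0 and 8.24 CPM in YAP-TFE3. TAZ4SA had 18.6, 29.2 and 30.9 CPM, TAZ-CAMTA1 19.9, 24.7 and 22.8 CPM and YAP5SA 45.6, 38.6 and 48.7 CPM. The fusions thus went apart: each TAZ-CAMTA1 library was above each EV library, and each YAP-TFE3 library was below. EVsub libraries had 16.1, 16.4 and 12.1 CPM and CAMTA1 libraries 15.9, 20.5 and 16.8 CPM. In order of means, YAP5SA (44.3 CPM, SD 5.18) stood alone at the top. TAZ4SA (26.2, SD 6.66), TAZ-CAMTA1 (22.5, SD 2.43), CAMTA1 (17.7, SD 2.45) and EVsub (14.9, SD 2.43) followed, each overlapping the next. EV (10.3, SD 0.824), TFE3 (8.44, SD 1.15) and YAP-TFE3 (7.87, SD 0.448) lay below them, again with overlap between neighbours.

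Nuak2 rose by 2.11 in YAP5SA (SE 0.174, adjusted p = 6.16e-10), 1.35 in TAZ4SA (SE 0.172, adjusted p = 9.45e-07) and 1.13 in TAZ-CAMTA1 (SE 0.171, adjusted p = 4.58e-05), while YAP-TFE3 gave -0.38 (SE 0.176, adjusted p = 0.164). Tested directly, TAZ-CAMTA1 exceeded YAP-TFE3 by 1.51 (SE 0.174, adjusted p = 4.33e-06), and YAP-TFE3 was below YAP5SA (-2.49, SE 0.177, adjusted p = 9.99e-11). TAZ-CAMTA1 against TAZ4SA gave -0.22 (adjusted p = 0.264), or -0.42 without TAZ4SA replicate 1 (0.0290, in a range to 0.801). TAZ4SA was below YAP5SA (-0.76, adjusted p = 0.00105). EVsub exceeded EV by 0.54 (SE 0.172, adjusted p = 0.0282); the call was lost without EV replicate 1 (0.108) or 2 (0.0598), without EVsub replicate 1 (0.100) or 2 (0.119) and with only these groups in the fit (0.0694), in a range of 0.00887 to 0.119. CAMTA1 against EVsub gave 0.25 (adjusted p = 0.431).

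Of 4 relatives and partners of Nuak2, all tested, 2 rose in TAZ4SA, and 1 rose and 1 fell in YAP5SA. In the fusion groups none was called by DESeq2 or by the main fit of edgeR. At an unadjusted p under 0.05 it was 0 in TAZ-CAMTA1 and 1 in YAP-TFE3, beside 4873 and 3895 of all 14361 genes. Of all genes 57.5%, 71.2%, 21.5% and 15.3% were called in TAZ4SA, YAP5SA, TAZ-CAMTA1 and YAP-TFE3. Over the alternatives in TAZ-CAMTA1, the adjusted p ran from 0.0103 to 0.327 for Ppp1r12a and from 0.0187 to 0.572 for Stk11. Stk11, the kinase LKB1 that activates the AMPK family, rose in TAZ4SA (0.93) and YAP5SA (1.01), with 0.26 in TAZ-CAMTA1 and -0.01 in YAP-TFE3. Ppp1r12a, the myosin-binding subunit of the phosphatase, rose in TAZ4SA (0.43, lost without EV replicate 2 or TAZ4SA replicate 1 or 3, highest adjusted p 0.136, and with library totals, 0.201), and the paralog Nuak1 fell in YAP5SA (-0.56) and in TFE3 (-0.67), the latter call lost without EV replicate 2 or 3 or TFE3 replicate 2 or 3 (highest adjusted p 0.103). Ppp1cb, the catalytic subunit, had values from -0.10 to 0.24.

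Ptpn14 encodes a protein tyrosine phosphatase that binds YAP and restrains it, so it is a target that can feed back on the pathway (ENSMUSG00000026604, chr1:189728268-189876695, plus strand). Its window (chr1:189728018-189728317, plus strand) held 1 match in the CATTCC form, 146 bases before the start, and is shown for that match.
Ptpn14: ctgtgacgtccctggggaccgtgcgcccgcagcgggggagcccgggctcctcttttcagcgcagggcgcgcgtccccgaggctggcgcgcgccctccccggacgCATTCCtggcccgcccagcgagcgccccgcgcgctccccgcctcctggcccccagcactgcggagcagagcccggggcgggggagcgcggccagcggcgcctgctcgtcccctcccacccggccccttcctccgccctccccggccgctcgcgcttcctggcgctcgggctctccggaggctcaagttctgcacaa
Ptpn14 was 119, 99.7 and 109 CPM in EV, 119, 130 and 116 CPM in EVsub, and 128, 127 and 124 CPM in TFE3. The activated coactivators gave 246, 244 and 207 CPM in TAZ4SA and 371, 343 and 332 CPM in YAP5SA. TAZ-CAMTA1 had 172, 202 and 221 CPM, and YAP-TFE3 153, 136 and 131 CPM. All 12 libraries of these 4 groups were above all EV libraries, and the CAMTA1 libraries (136, 126 and 119 CPM) overlapped EVsub. By mean, YAP5SA (348 CPM, SD 20) stood apart, TAZ4SA (232, SD 22.1) and TAZ-CAMTA1 (198, SD 24.8) overlapped, and YAP-TFE3 (140, SD 11.8), CAMTA1, TFE3, EVsub and EV (109, SD 9.66) followed, each overlapping the next.

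Ptpn14 rose by 1.67 in YAP5SA (SE 0.107, adjusted p = 1.62e-11), 1.09 in TAZ4SA (SE 0.105, adjusted p = 2.22e-08), 0.86 in TAZ-CAMTA1 (SE 0.105, adjusted p = 3.06e-06) and 0.36 in YAP-TFE3 (SE 0.104, adjusted p = 0.0204). The YAP-TFE3 call was lost with no filter (0.0558), without EV replicate 2 (0.30, 0.0930) or 3 (0.36, 0.0693) and without YAP-TFE3 replicate 1 (0.26, 0.168), in a range of 0.00854 to 0.168. TAZ-CAMTA1 exceeded YAP-TFE3 by 0.50 (SE 0.104, adjusted p = 0.00271), YAP-TFE3 was below YAP5SA (-1.31, SE 0.105, adjusted p = 5.5e-10) and TAZ4SA was below YAP5SA (-0.59, adjusted p = 0.000145). TAZ-CAMTA1 against TAZ4SA gave -0.23 (adjusted p = 0.0669); it was -0.31 both without TAZ4SA replicate 3 (0.0168) and without TAZ-CAMTA1 replicate 3 (0.0279), in a range to 0.687. Gm26574, which overlaps an exon of Ptpn14 on the other strand, had means of at most 0.753 CPM.

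Of the 2 related phosphatases, Ptpn21 rose in TAZ4SA (0.42, lost without TAZ4SA replicate 3 at 0.26, adjusted p = 0.137, and with library totals at 0.190), TAZ-CAMTA1 (1.17), YAP5SA (0.96) and YAP-TFE3 (0.97). Ptpn13 fell in TAZ4SA (-0.79) and YAP5SA (-1.65), with -0.19 and 0.18 in the fusion groups.

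Dock5 and Arhgef17 encode exchange factors that switch on small GTPases of the cytoskeleton. Dock5 (ENSMUSG00000044447, chr14:67752135-67933442, minus strand) was 105, 81.2 and 105 CPM in EV and 89.4, 86.8 and 84.0 CPM in TFE3. It was 28.7, 30.2 and 45.0 CPM in TAZ4SA and 43.6, 38.5 and 40.2 CPM in YAP5SA, all 6 below every other library. TAZ-CAMTA1 had 71.8, 86.3 and 84.3 CPM, which overlapped EV, and YAP-TFE3 73.4, 73.2 and 72.1 CPM, which did not. EVsub had 75.3, 74.4 and 74.9 CPM and CAMTA1 92.8, 83.5 and 79.3 CPM. The means of EV (96.8 CPM, SD 13.6), TFE3, CAMTA1, TAZ-CAMTA1 and EVsub (74.9, SD 0.409) each overlapped the next, YAP-TFE3 (72.9, SD 0.698) came next, apart from EVsub but overlapping TAZ-CAMTA1, and YAP5SA (40.8, SD 2.61) and TAZ4SA (34.6, SD 9.03) overlapped at the bottom.

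Dock5 fell against EV, with log2 fold changes of -1.48 in TAZ4SA (SE 0.134, adjusted p = 8.75e-09) and -1.25 in YAP5SA (SE 0.133, adjusted p = 3.02e-08). TAZ-CAMTA1 exceeded TAZ4SA by 1.22 (SE 0.134, adjusted p = 2.17e-07), and YAP-TFE3 exceeded YAP5SA by 0.84 (SE 0.132, adjusted p = 7.72e-06). It also fell in YAP-TFE3 against EV, by less (-0.41, SE 0.130, adjusted p = 0.0345), a call lost with library totals (0.0821), without EV replicate 1 (-0.35, 0.147) or 3 (-0.35, 0.153) and without any 1 YAP-TFE3 library (0.0891, 0.0805 and 0.0774), in a range of 0.00358 to 0.153. TAZ-CAMTA1 against EV gave -0.26 (adjusted p = 0.161), and 0.0454 without TAZ4SA replicate 3, in a range to 0.589, the highest with EVsub as control (0.11). TAZ4SA against YAP5SA gave -0.23 (adjusted p = 0.170), or -0.47 without TAZ4SA replicate 3 (0.00291). In EVsub against EV it fell (-0.37, SE 0.130, adjusted p = 0.0439) in a call that 18 of 31 alternatives ended, with an adjusted p from 0.00611 to 0.170. The libraries whose removal ended it were EV replicates 1 and 3 (0.160 and 0.170), all 3 of EVsub (0.0966, 0.107 and 0.0730), TAZ-CAMTA1 replicates 2 and 3 (0.0503 and 0.0520) and CAMTA1 replicate 2 (0.0533). The same held for YAP5SA replicate 3 (0.0530), YAP-TFE3 replicates 2 and 3 (0.0524 and 0.0516) and each TFE3 library (0.0535, 0.0543 and 0.0533).

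Of 8 relatives and partners of Dock5, 6 were tested: 2 fell in TAZ4SA, 3 fell in YAP5SA, 1 rose and 1 fell in TAZ-CAMTA1, and 2 rose and 1 fell in YAP-TFE3. Of all genes 26.4% and 34.9% fell in TAZ4SA and YAP5SA, and 21.5% and 15.3% were called in the fusion groups. Elmo1, an adaptor of DOCK proteins, rose by 7.16 in YAP-TFE3, from a mean of 0.471 CPM in EV to 67.2 CPM, and by 3.68 in TAZ-CAMTA1 (6.0 CPM), with 0.39 in TAZ4SA and 0.79 in YAP5SA. Dock1 fell in TAZ4SA (-1.27), TAZ-CAMTA1 (-0.44), YAP5SA (-1.40) and YAP-TFE3 (-0.34), the last call lost without EV replicate 1 or 3 or YAP-TFE3 replicate 1 or 2 (highest adjusted p 0.0958) and with no filter (0.0980). Dock4 fell in YAP5SA (-0.95) and rose in YAP-TFE3 (0.79, lost without YAP-TFE3 replicate 1 at 0.54, adjusted p = 0.0896). Dock4 also rose in CAMTA1 against EVsub (1.03, adjusted p = 0.00481) and in TFE3 (0.73, adjusted p = 0.0303), the latter call lost without any 1 EV or TFE3 library (highest adjusted p 0.140) and with library totals (0.0506). The former was lost when the fit held CAMTA1 and EVsub alone (0.0969, in a range from 6.05e-05). Elmo2 fell in TAZ4SA (-0.38) and YAP5SA (-0.25, lost without EV replicate 1 or YAP5SA replicate 2, highest adjusted p 0.0860).

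Arhgef17 (ENSMUSG00000032875, chr7:100869752-100932107, minus strand) varied least of the 9 targets between groups. EV libraries had 168, 147 and 176 CPM and TAZ-CAMTA1 libraries 188, 208 and 212 CPM, and the other groups lay between 131 CPM, in a TFE3 library, and 231 CPM, in a CAMTA1 library. Means ran from 213 CPM in CAMTA1 (SD 22.5), through TAZ-CAMTA1 (203, SD 12.9), EVsub (187), YAP-TFE3 (186), EV (164, SD 14.8), YAP5SA (150) and TAZ4SA (149), to 142 in TFE3 (SD 9.76), and every neighbour overlapped the next. TAZ-CAMTA1 rose against EV by 0.31 (SE 0.103, adjusted p = 0.0351), with each library above each EV library. Of 32 alternatives 8 ended the call: EVsub as control (0.12, 0.450), library totals (0.0652), no filter (0.101), and the removal of EV replicate 1 (0.0727) or 2 (0.24, 0.141), TAZ-CAMTA1 replicate 2 (0.111) or 3 (0.128), or YAP-TFE3 replicate 1 (0.0576). The adjusted p ran from 0.0234 to 0.450.

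Arhgef17 was higher with each fusion than with its activated coactivator, by 0.45 for TAZ-CAMTA1 against TAZ4SA (SE 0.103, adjusted p = 0.000982) and 0.31 for YAP-TFE3 against YAP5SA (SE 0.103, adjusted p = 0.0104), or 0.25 without YAP-TFE3 replicate 2 (0.0617). TAZ4SA and YAP5SA against EV gave -0.14 (adjusted p = 0.257) and -0.12 (adjusted p = 0.293); with library totals these were -0.32 (0.0199) and -0.50 (0.000571), in ranges to 0.565 and 0.616. YAP-TFE3 exceeded TFE3 by 0.39 (adjusted p = 0.00710). Mir3102, which lies within the gene's exons, had no count.

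Direct contrasts show how the fusions and the activated coactivators differed over all 9 targets. TAZ-CAMTA1 against TAZ4SA called 4 higher (F3, Fjx1, Dock5 and Arhgef17) and 2 lower (Ankrd1 and Crim1), where 26.6% of all genes were higher and 28.1% lower. YAP-TFE3 against YAP5SA called 4 higher (the same genes by name: F3, Fjx1, Dock5 and Arhgef17) and 4 lower (Axl, Crim1, Nuak2 and Ptpn14), where 36.4% were higher and 34.5% lower. In TAZ-CAMTA1 against YAP-TFE3, Nuak2 and Ptpn14 were the 2 targets called higher, where 5.32% of all genes were, and none was lower, where 6.32% were. DESeq2 also called 2 there, and 2 had an unadjusted p under 0.05, beside 3677 of all genes. Ankrd1 gave -0.62 (adjusted p = 0.206) with ranges apart, and was called lower with no filter (-0.61, 0.0365, in a range to 0.701). TAZ4SA against YAP5SA called 3 targets lower (Axl, Nuak2 and Ptpn14), where 19.6% of all genes were, and none higher, where 22.8% were. For this contrast DESeq2 called 3, and 3 had an unadjusted p under 0.05, beside 7193 of all genes. In YAP-TFE3 against TFE3, 4 were higher (Ankrd1, Axl, Crim1 and Arhgef17) and 1, Fjx1, was lower, where 14.3% and 8.62% of all genes were. The targets' median log2 differences in these 5 contrasts were 0.22, -0.34, 0.15, -0.23 and 0.15, beside all-gene medians of 0.00, 0.05, -0.01, 0.05 and 0.02. Over the alternatives, the targets' medians ran from 0.17 to 0.38, -0.68 to 0.01, 0.1 to 0.23, -0.42 to -0.02 and 0.04 to 0.2, in the same order. With library totals the all-gene medians became 0.17 for TAZ-CAMTA1 against TAZ4SA, 0.41 for YAP-TFE3 against YAP5SA and 0.25 for TAZ4SA against YAP5SA, and those of the targets 0.38, 0.01 and -0.02. The share of called genes that were higher went from 48.5% to 62.0%, from 51.4% to 67.6% and from 53.8% to 72.6%, while the called targets had the same direction. Library totals added Axl as higher in TAZ-CAMTA1 against TAZ4SA (0.38, adjusted p = 0.0246, against 0.22 and 0.162 with TMM, in a range to 0.357).

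**Figure D4:**
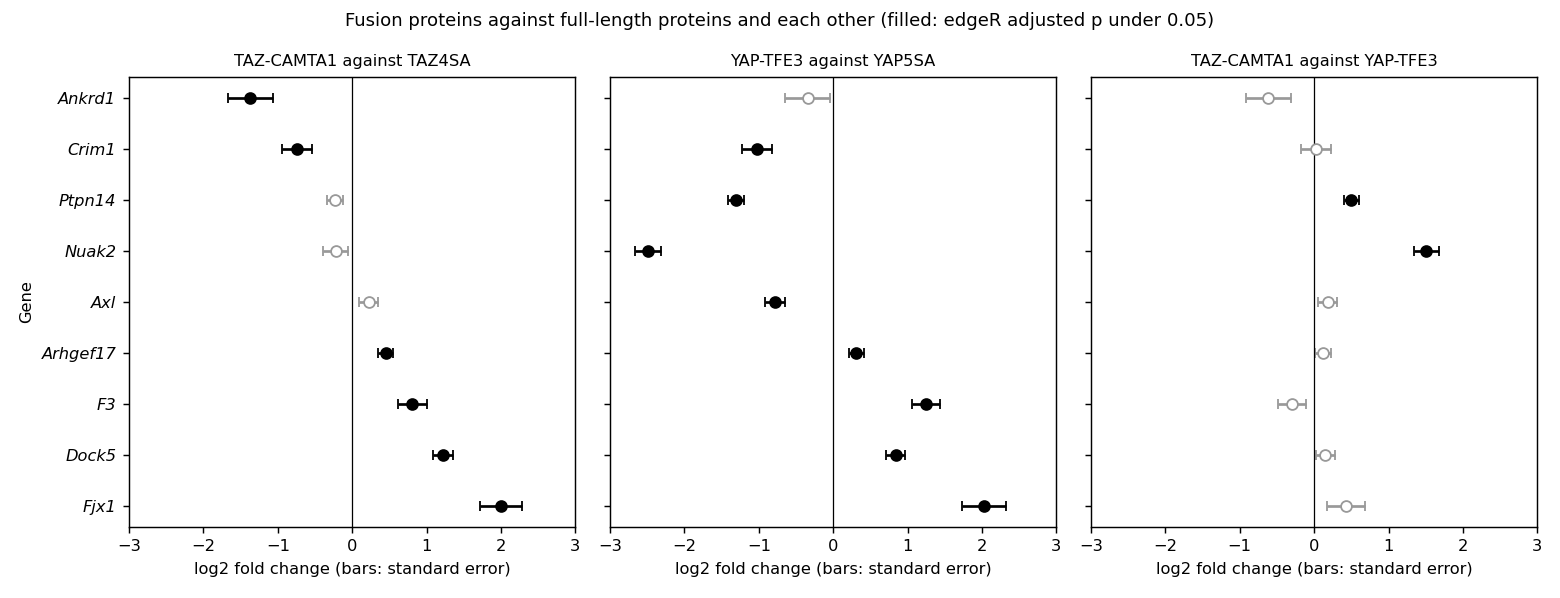
Log2 difference with its standard error for the 9 targets in TAZ-CAMTA1 against TAZ4SA, YAP-TFE3 against YAP5SA and TAZ-CAMTA1 against YAP-TFE3; filled points had an adjusted p under 0.05 in edgeR. Fjx1 is higher with each fusion than with its activated coactivator (2.00 and 2.03), and Nuak2 is 1.51 higher in TAZ-CAMTA1 than in YAP-TFE3.

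The effect of TAZ-CAMTA1 over EV exceeded that of CAMTA1 over EVsub for 2 targets, where 5.21% of all genes had a higher difference, and was smaller for none, where 2.43% did. For Ptpn14 the difference was 0.80 (SE 0.147, adjusted p = 0.00132) and for Nuak2 0.88 (SE 0.239, adjusted p = 0.0245). An unadjusted p under 0.05 was reached by 5 targets, with Ankrd1 and Axl added as higher and Dock5 as lower, beside 2980 of all 14361 genes. DESeq2 called 3, with Axl added. The Nuak2 call was lost with library totals (0.0508), without EV replicate 1 (0.0690), EVsub replicate 1 (0.0565) or 2 (0.0706), TAZ-CAMTA1 replicate 2 (0.0735) or 3 (0.0557), or CAMTA1 replicate 1 or 3 (0.0609 each), in a range of 0.00764 to 0.0735, which left a count of 1. Ankrd1 gave 1.13 (SE 0.435, adjusted p = 0.123), which passed with no filter (0.00488) and without EV replicate 2 (1.48, 0.0382), in a range to 0.313. Axl gave 0.54 (adjusted p = 0.0771), which passed by DESeq2 (0.0427) and without EVsub replicate 3 (0.66, 0.0221), in a range to 0.267, and Dock5 gave -0.45 (adjusted p = 0.153), which passed without TAZ4SA replicate 3 (0.0351, in a range to 0.311). The median over the 9 targets was 0.12, beside 0.03 over all genes, and ran from 0.04 to 0.31 over the alternatives.

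The other 12 listed YAP/TAZ targets, CCN genes included, gave a scale for these values. Igfbp3 had at most 1 count in a library, and the other 11 were tested. Against EV, 6 rose and 2 fell in TAZ4SA, 4 rose in TAZ-CAMTA1, 6 rose and 2 fell in YAP5SA, and 3 rose and 1 fell in YAP-TFE3, with medians of 0.95, 0.20, 1.02 and 0.33. Of all genes 57.5%, 21.5%, 71.2% and 15.3% were called in these groups, so the counts in TAZ4SA and YAP5SA say little by themselves. Ccn1 (Cyr61) rose by 2.74, 2.53, 5.25 and 1.73 in these groups, and Lats2, the Hippo kinase that is itself a target, by 0.95, 1.17, 1.41 and 0.66. Amotl2, an angiomotin that binds YAP, also rose in all 4, by 1.41, 0.95, 2.09 and 0.49. Ccn2 (Ctgf) rose in TAZ4SA (3.96) and YAP5SA (4.24), with 0.99 (adjusted p = 0.0781) in TAZ-CAMTA1 and 1.06 (adjusted p = 0.0728) in YAP-TFE3. Over the alternatives its adjusted p in TAZ-CAMTA1 ran from 0.00117 to 0.229, and with EVsub as control the value was -1.57 (0.00561). Gadd45a rose in TAZ4SA (1.07) and YAP5SA (1.1), as did Ccdc80 (1.19 and 1.02), and Myof rose in TAZ-CAMTA1 (0.81). Asap1 fell in TAZ4SA (-0.86) and YAP5SA (-0.88), Tgfb2 fell in TAZ4SA (-1.1) and YAP-TFE3 (-0.77), Rbms3 fell in YAP5SA (-0.43), and Foxf2 had values from -0.25 to 0.35 with none called. The call of Amotl2 in YAP-TFE3 was lost without EV replicate 1 or 3 or YAP-TFE3 replicate 1 (highest adjusted p 0.269) and that of Tgfb2 without EV replicate 1 or 3 or YAP-TFE3 replicate 2 (0.0684). Rbms3 in YAP5SA was lost without any 1 of 14 libraries (0.121).

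In sub-confluent EVsub against EV, 4 of these 11 rose and 3 fell, where 12.5% and 9.59% of all genes did, with a median of 0.21. Ccn2 rose by 2.56, Ccn1 by 1.53, Amotl2 by 0.64 and Myof by 0.53, while Gadd45a (-2.35), Tgfb2 (-1.75) and Rbms3 (-0.56) fell. The call of Myof was lost without EVsub replicate 1 (0.44) and that of Rbms3 without EV replicate 2 or 3 or EVsub replicate 1 or 2 (highest adjusted p 0.189), while that of Ccn1 was lost only when the fit held EV and EVsub alone (0.0522). By edgeR none of the 11 was called in TFE3 against EV or in CAMTA1 against EVsub, where the medians were -0.13 and 0.18. At an unadjusted p under 0.05 it was 4 and 5 of the 11, beside 2055 and 2612 of all 14361 genes. DESeq2 called 0 and 1 of the 11. Of all genes 3.38% and 2.18% were called by edgeR.

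**Figure D5:**
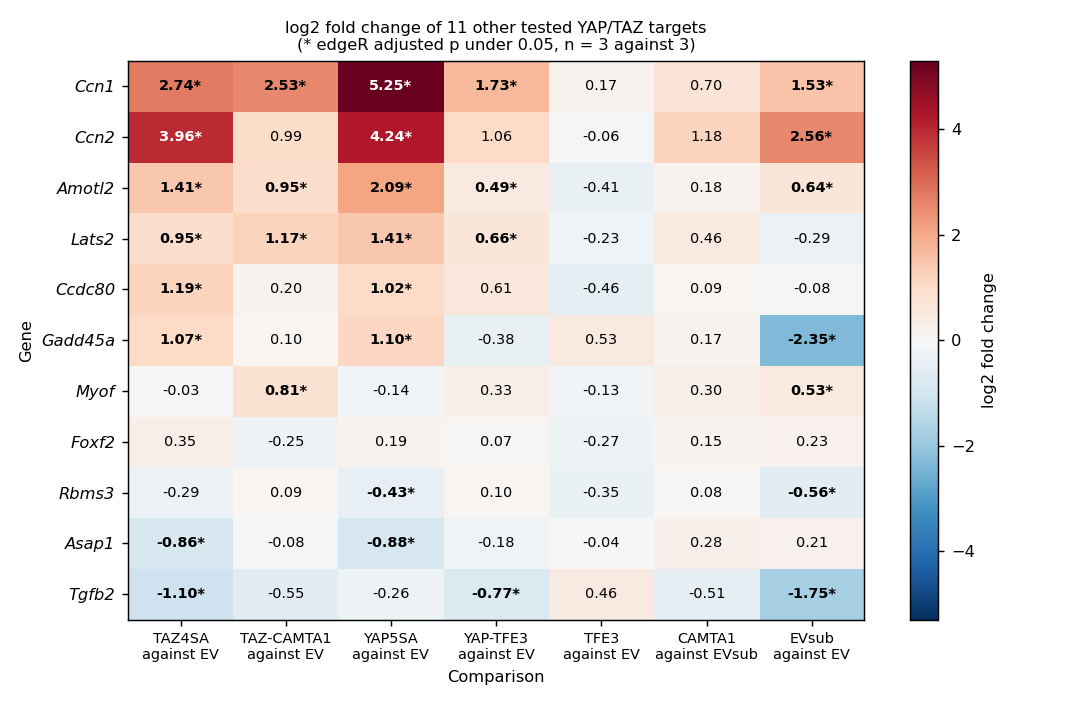
Log2 fold changes of the 11 other YAP/TAZ targets tested (lines) in the same 7 comparisons (columns), by color, with values and an asterisk where the adjusted p of edgeR was under 0.05. Ccn1, Lats2 and Amotl2 are called higher in all 4 coactivator and fusion groups, as are Ankrd1, Crim1 and Ptpn14 among the 9.

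Upstream, 18 Hippo kinases and adaptors were tested: 8 rose and 5 fell in TAZ4SA, 8 rose and 8 fell in YAP5SA, 6 rose and 1 fell in TAZ-CAMTA1, and 5 rose and 1 fell in YAP-TFE3. Of all genes 57.5%, 71.2%, 21.5% and 15.3% were called in these groups. The list shares Lats2 and Amotl2 with the other targets above. Ajuba, a LIM protein that binds LATS kinases, rose by 0.71, 1.54, 1.76 and 0.44 in TAZ4SA, TAZ-CAMTA1, YAP5SA and YAP-TFE3, and Wwc2 by 0.61, 0.83, 0.98 and 0.56. Wwc2 also rose in CAMTA1 against EVsub (0.44, adjusted p = 0.0364). Amot, which holds YAP in the cytoplasm, fell, with -1.58, -1.09, -1.32 and -0.68, and also fell in EVsub against EV (-0.67, adjusted p = 0.000558). The YAP-TFE3 call of Ajuba was lost without EV replicate 1 or 2 or YAP-TFE3 replicate 1 (highest adjusted p 0.160). Of 10 coactivator, TEAD and VGLL genes 8 were tested; 4 rose and 1 fell in TAZ4SA, 2 rose and 2 fell in TAZ-CAMTA1, 5 rose and 1 fell in YAP5SA, and 2 rose and 1 fell in YAP-TFE3, beside the same shares of all genes. Tead1 rose in all 4 groups, by 0.69, 0.99, 0.75 and 0.48. Tead2 rose in TAZ4SA (0.45) and YAP5SA (0.78) and fell in TAZ-CAMTA1 (-0.71) and YAP-TFE3 (-0.57), and Vgll3 rose in TAZ-CAMTA1 (0.79) and YAP-TFE3 (1.06). Yap1 fell in TAZ4SA (-0.69), TAZ-CAMTA1 (-0.25) and YAP5SA (-0.86), and Wwtr1, the gene of TAZ, rose in TAZ4SA (0.28), a call lost with library totals (0.352), with no filter (0.122) and when the fit held only EV and TAZ4SA (0.163). Yap1 (-0.37) and Wwtr1 (-0.30) also fell in EVsub against EV. Both calls were lost when the fit held EV and EVsub alone (0.0519 and 0.0787), and that of Wwtr1 without EV replicate 3 or EVsub replicate 1 or 2 and with no filter (highest adjusted p 0.134). In YAP-TFE3, without its replicate 1 the calls of Tead1 (0.34, adjusted p = 0.0984), Tead2 and Vgll3 were lost, those of Tead2 and Vgll3 also without EV replicate 1 and that of Tead2 without EV replicate 3 (highest adjusted p 0.124 and 0.108). In TAZ-CAMTA1, Vgll3 was lost without EV replicate 1 or 3 or TAZ-CAMTA1 replicate 2 or 3 (0.182), and Yap1 without EV replicate 1 or 3 or any 1 TAZ-CAMTA1 library (0.156) and with no filter (0.257). Tead2 in TAZ4SA was lost without EV replicate 2 or TAZ4SA replicate 1 or 2 (0.157) and with library totals (0.186).

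Many calls of these genes in TAZ-CAMTA1 also depended on the control. Of 28 calls against EV of genes named from the other lists, 14 were kept with EVsub as control, an alternative chosen after the data were seen, and 13 were lost. These were Ccn1 (1.0), Myof (0.28), Amotl2 (0.32), Tead2 (-0.41), Vgll3 (0.72), Yap1 (0.12), Adora2b (0.45), Fat1 (0.01), Fat2 (-0.51), Dock1 (-0.19), Thy1 (-0.20), Pdgfrb (0.03) and Krt14 (0.27), with adjusted p from 0.0511 to 0.968. The call of Mertk was reversed (1.08, adjusted p = 0.000473, in a range to 0.0443). Another 13 genes were called with EVsub alone: Gadd45a (2.44), Tgfb2 (1.19), Rbms3 (0.65), Tfpi (1.76), Bmpr2 (0.71), Bmpr1a (0.48), Kdr (2.57), Tek (3.04) and Wwtr1 (0.47) as higher, and Ccn2 (-1.57), Foxf2 (-0.48), Slc29a1 (-0.72) and Csf1r (-2.21) as lower.

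The genes most like each target over the 24 libraries, by Pearson's r of log2 CPM among 11363 genes, were Tinagl1 (0.968) and Tjp1 (0.957) for Ankrd1 and Ehd2 (0.932) for Axl. Mmp2 (0.945) and Scg2 (0.936) were nearest to F3, and Ptgs2 (0.953) and Styk1 (0.947) to Crim1. Fjx1 was nearest to 4931428F04Rik (0.978) and Galnt12 (0.965), Nuak2 to Igf2bp1 (0.968) and Odc1 (0.964), and Ptpn14 to Lrrc1 (0.968) and Map6 (0.967). Dock5 had Eps8 (0.959) and Sub1 (0.953), and Arhgef17 had lower values, 0.837 for Atp10a and 0.827 for Filip1l. Among the 9 targets themselves, r was 0.92 between Fjx1 and Dock5, 0.83 between Ankrd1 and Crim1, 0.83 between Nuak2 and Ptpn14, -0.82 between F3 and Crim1 and -0.87 between Fjx1 and Ptpn14. These values describe 8 groups of 3 libraries, and the part of differences between groups in them was not tested.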

How the data were processed

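RNA-Seq counts of 24 libraries of NIH 3T3 cells, 3 in each of 8 groups, were analysed. The authors deposited raw counts: integers for each Ensembl gene identifier, not normalized. The methods name a stranded library kit, alignment with Hisat2, and Salmon with tximport; which route gave the deposited counts, and whether strand was used, is not stated. Groups and replicate numbers came from the sample labels; where the title and the description of YAP-TFE3 replicate 3 gave different numbers, the title was used. Library totals were 16471181 to 30132586 counts. Symbols, coordinates and exon lengths came from GENCODE M21 (mm10), which matched 37607 identifiers and left 1410 unmatched.

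edgeR 4.0.16 in R 4.3.3 fitted all 24 libraries in 1 quasi-likelihood model with a coefficient per group, TMM scaling and a filter on the mean count, 5 or more, which left 14361 genes. Each p was adjusted by Benjamini and Hochberg over all of them, and a gene was called under 0.05. The standard errors (SE) given were derived from the test, as the absolute log2 fold change divided by the square root of its F statistic. 13 comparisons were made, among them the difference between TAZ-CAMTA1 against EV and CAMTA1 against EVsub. Tables were made with pandas 2.3.3 and numpy 2.4.6 and plots with matplotlib 3.10.9, under Python 3.11.15. The likeness of genes used log2 CPM with a prior count of 2, where the mean count was 50 or more.

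The alternatives were DESeq2 1.42.0, its size factors in edgeR, library totals, no filter (24737 genes), a minimum of 10 counts in each library (11461 genes), replicate as a block, a fit of only the groups compared, and each of the 24 libraries left out. EVsub as the control of TAZ-CAMTA1 was added after the data were seen. The fits were tested on simulated data.

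All 10 targets and all 12 other listed targets are named. Of each other list described, the counts are given and up to 4 genes are named, those with the smallest adjusted p in TAZ-CAMTA1 or YAP-TFE3 against EV, with genes of the expressed proteins. Marker genes at or near 0, Fn1, Col3a1 and the genes that overlap a target were named outside this rule, after their values were seen. The lists were other YAP/TAZ targets, Hippo kinases and adaptors, coactivators with TEAD and VGLL, relatives or partners of targets, and fibroblast, endothelial, epithelial and leukocyte markers. Dchs2 was listed but is not in the count files. The targets and the lists were chosen with earlier results of these data known. Promoters are RefSeq windows on GRCm38.p6, printed where they hold GGAATG or CATTCC.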

Additional observations from a re-analysis of the deposited data

How the results depend on the processing

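For the 9 targets in 13 comparisons, leaving out 1 library at a time kept direction and side of the threshold for 2715 values, brought 14 past the threshold, took 64 below it and reversed 15; the other alternatives gave 788, 13, 20 and 7. With EVsub as the control of TAZ-CAMTA1, chosen after seeing the data, F3 (1.05, adjusted p = 0.000391), Crim1 (-0.13) and Dock5 (0.11) reversed, and targets called were 3. No other reversed value was called. With library totals they were Axl in TAZ4SA against EV (-0.02), Ankrd1 in YAP-TFE3 against YAP5SA (0.01) and Arhgef17 in TAZ4SA against YAP5SA (0.17), the last also with at least 10 counts in every library (0.01). With 1 library left out, values that crossed 0 ran from -0.13 to 0.05 for Crim1 and -0.06 to 0.18 for Fjx1 in TFE3 against EV, -0.29 to 0.02 for Axl in CAMTA1 against EVsub, -0.05 to 0.20 for Crim1 in TAZ-CAMTA1 against YAP-TFE3, -0.18 to 0.01 for Nuak2 in YAP-TFE3 against TFE3 and -0.06 to 0.31 for F3 in the difference between TAZ-CAMTA1 against EV and CAMTA1 against EVsub. In TAZ4SA against YAP5SA they ran from -0.07 to 0.61 for Ankrd1, -0.03 to 0.36 for F3, -0.06 to 1.0 for Fjx1 and -0.08 to 0.04 for Arhgef17. In a fit of only the groups compared, genes called moved by over 1.5 times, to 1512 for TFE3 against EV, 22 for CAMTA1 against EVsub, 1683 for EVsub against EV, 2572 for TAZ-CAMTA1 against YAP-TFE3, 2910 for TAZ4SA against YAP5SA and 4952 for YAP-TFE3 against TFE3. CAMTA1 against EVsub had 629 genes called by DESeq2 and 674 with no filter. Targets called were 1 for TFE3 against EV by DESeq2 and with only the groups compared, 2 for EVsub against EV with only the groups compared, and, for CAMTA1 against EVsub, 2 by DESeq2, 2 with no filter and 0 with only the groups compared; the difference between effects had 1 with library totals. With 1 library left out, genes called ran from 2010 to 3760 for TAZ-CAMTA1 against EV, 1133 to 2757 for YAP-TFE3 against EV, 192 to 706 for TFE3 against EV, 72 to 710 for CAMTA1 against EVsub, 1971 to 3846 for EVsub against EV, 835 to 2229 for TAZ-CAMTA1 against YAP-TFE3 and 710 to 1567 for the difference. Targets called ran from 3 to 8, 1 to 5, 0 to 1, 0 to 2 and 2 to 5 in the first 5 of these and 1 to 3 in the last. The cause of these changes was not tested. The main fit did not pair libraries by replicate number. Between libraries of the same number, correlations of deviations from the group mean were -0.212 to 0.41. The highest was in CAMTA1 against EVsub, with 0.252, -0.002 and 0.41 for replicates 1, 2 and 3. With a replicate block Axl in TAZ-CAMTA1 against EV (adjusted p = 0.0617) and Dock5 in EVsub against EV (adjusted p = 0.0524) were no longer called. Of 156 calls of genes from the other lists, 38 were lost without some 1 library. Depth limits Nt5e, Igfbp3 and the markers near 0.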
